A study of Mus musculus with 18 samples.

Results

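This account covers the macroH2A2-GFP chromatin of mouse dermal fibroblasts after 5d of doxycycline, set against the same cells after 24h. Its members are the broad regions that SICER called (window 200 bases, gap 800 bases) in the 2 libraries titled 5d and 24h without a drug, of 18 samples in the series. The 5d list held 48386 regions and the 24h list 44827, together 93213 of the 399440 regions in the 8 lists called that way. A second calling of the 5d library, using 1000-base windows and 4000-base gaps, held 14050 regions.

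Both libraries came from a male 129/S6 line of newborn dermal fibroblasts immortalized with SV40, which is labelled as a knockout of macroH2A1 and macroH2A2 and carries a macroH2A2-GFP transgene under doxycycline control. The cells received 0.5 ug/ml doxycycline for 5d or for 24h, and chromatin was cut with MNase and pulled down natively through GFP. Lists from the same line without doxycycline (0h) and after 6h were used beside them. So were lists from cells given 0.5 uM flavopiridol during the final 18 hours of a 24h induction, and from cells kept in 5 uM GSK126 for 10 days and induced for 6h or 24h. An H2A.Z list came from primary dermal fibroblasts of newborn wild-type females. Each ChIP condition had 1 library, so there was no replicate check and no test, and the read depth behind the regions is unknown. Poly(A) RNA had 3 libraries each at 0h, 6h and 24h (29338093 to 37793178 counts over genes), while RNA at 5d was not used here.

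MacroH2A proteins are histone H2A variants that carry a large globular macro domain behind the histone fold and are found in broad domains, often on inactive genes and on the inactive X chromosome. MacroH2A2, encoded by Macroh2a2, is the less widely expressed of the pair. A region here is a stretch in which SICER, a caller built for diffuse marks, found an enriched run of windows. A region was called kept where it shared at least 1 base with a region of the other time, gained where a 5d region shared none with 24h, and lost where a 24h region shared none with 5d.

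Transgene RNA was counted with the Macroh2a2 gene, which had 15.3 ± 8.88 CPM (each library's counts scaled to a common total) at 0h, 808 ± 16.1 CPM at 6h and 1729 ± 16.9 CPM at 24h (SD, n = 3 each). Macroh2a1 had 57.1 ± 4.7 CPM at 24h and 57.4 ± 1.86 CPM at 0h. These counts are sums over whole genes and do not check the deleted parts. Of 19 fibroblast markers, 13 had 10 CPM or more at 24h, led by Vim at 4533 ± 42.9 CPM, while Lum was at 0 and Dcn at 1.14 ± 0.0540 CPM (n = 3). Of the leukocyte and hepatocyte or gut markers none reached 1 CPM (9 and 11 genes). Some markers of other cell types did, 3 of 10 for keratinocytes (highest Dsp at 17.4 CPM, with Krt5 at 0 and Krt14 at 0.0272 CPM), 1 of 10 for endothelium (Flt1 at 23.9 CPM), 3 of 10 for melanocytes and Schwann cells (highest Erbb3 at 4.59 CPM) and 3 of 10 for muscle and fat (highest Pparg at 8.54 CPM). Their part in the results was not tested.

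The start sites of 7 genes are printed to show how CG-rich and CG-poor starts lay relative to the regions at the 2 times. Each line gives 300 bases, 250 before and 50 after the start, from RefSeq on GRCm38.p6, with every CG dinucleotide in capitals (CG reads the same on both strands). Rcan2, Slc6a4, Lrrc17 and Thbs2 were taken by the rule for named genes. Nkx2-5, Wnt1 and Alb were chosen after their values were seen. In that order, they lay in regions at both times, at 24h only and at 5d only. Inside and outside refer here to the 5d and 24h lists, not to the second calling of 5d. In the second calling all 300 bases lay inside a region for Wnt1, Thbs2, Lrrc17, Rcan2, Nkx2-5 and Alb, and 0 for Slc6a4. The Wnt1, Thbs2 and Lrrc17 starts were therefore outside at 5d in only one of the callings.
Nkx2-5 (chr17:26841516-26841815, minus strand), inside regions at 5d and at 24h: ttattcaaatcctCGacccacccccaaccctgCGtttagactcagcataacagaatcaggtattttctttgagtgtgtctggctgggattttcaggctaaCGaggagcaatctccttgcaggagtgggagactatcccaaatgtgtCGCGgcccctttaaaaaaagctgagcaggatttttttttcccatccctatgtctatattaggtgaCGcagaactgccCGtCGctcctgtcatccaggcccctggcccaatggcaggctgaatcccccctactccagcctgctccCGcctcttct
Rcan2 (chr17:43801102-43801401, plus strand), 99 bases inside at 5d and 300 at 24h: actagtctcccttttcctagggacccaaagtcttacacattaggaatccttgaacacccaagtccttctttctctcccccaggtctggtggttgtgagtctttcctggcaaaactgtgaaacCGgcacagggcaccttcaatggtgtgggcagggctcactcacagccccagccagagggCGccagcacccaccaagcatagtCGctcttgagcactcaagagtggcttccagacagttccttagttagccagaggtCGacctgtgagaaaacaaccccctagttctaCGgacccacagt
Alb (chr5:90460620-90460919, plus strand), inside at 5d and not at 24h: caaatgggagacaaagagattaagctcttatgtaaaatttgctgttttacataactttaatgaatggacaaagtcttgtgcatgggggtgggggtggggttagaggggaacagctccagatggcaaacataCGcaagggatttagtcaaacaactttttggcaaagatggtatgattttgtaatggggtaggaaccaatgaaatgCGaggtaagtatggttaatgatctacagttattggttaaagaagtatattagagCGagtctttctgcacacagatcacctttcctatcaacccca
Thbs2 (chr17:14694213-14694512, minus strand), inside at 24h and not at 5d: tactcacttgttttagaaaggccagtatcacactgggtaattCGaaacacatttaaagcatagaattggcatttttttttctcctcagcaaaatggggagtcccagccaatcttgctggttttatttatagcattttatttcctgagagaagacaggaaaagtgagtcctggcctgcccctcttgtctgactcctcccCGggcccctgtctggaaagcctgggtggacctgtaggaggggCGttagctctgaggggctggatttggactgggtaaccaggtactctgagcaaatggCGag
Wnt1 (chr15:98789607-98789906, plus strand), inside at 24h and not at 5d: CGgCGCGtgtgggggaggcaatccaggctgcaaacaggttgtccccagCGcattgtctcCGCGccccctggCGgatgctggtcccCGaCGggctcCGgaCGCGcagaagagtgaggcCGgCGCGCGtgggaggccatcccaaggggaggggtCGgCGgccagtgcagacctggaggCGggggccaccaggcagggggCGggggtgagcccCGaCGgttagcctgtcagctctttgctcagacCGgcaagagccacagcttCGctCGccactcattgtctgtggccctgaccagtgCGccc
Slc6a4 (chr11:76998347-76998646, plus strand), outside at both times: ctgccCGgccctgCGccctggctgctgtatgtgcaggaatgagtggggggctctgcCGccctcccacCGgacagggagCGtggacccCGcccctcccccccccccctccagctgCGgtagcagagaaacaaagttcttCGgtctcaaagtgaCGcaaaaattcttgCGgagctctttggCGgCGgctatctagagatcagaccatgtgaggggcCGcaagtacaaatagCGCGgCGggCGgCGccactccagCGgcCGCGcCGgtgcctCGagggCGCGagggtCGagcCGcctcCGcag
Lrrc17 (chr5:21543277-21543576, plus strand), outside at both times: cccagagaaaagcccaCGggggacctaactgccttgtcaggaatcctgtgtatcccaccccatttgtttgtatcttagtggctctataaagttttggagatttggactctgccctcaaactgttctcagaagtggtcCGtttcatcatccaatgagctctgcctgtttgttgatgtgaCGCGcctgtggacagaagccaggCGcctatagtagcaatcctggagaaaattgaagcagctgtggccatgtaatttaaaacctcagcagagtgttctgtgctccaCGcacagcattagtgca
Wnt1, a secreted developmental signal, has 26 CG dinucleotides in this window and Slc6a4, the serotonin transporter, has 28. Alb, the serum albumin gene of hepatocytes, has 3, Thbs2, a matrix glycoprotein, has 4, Rcan2, a regulator of calcineurin, has 5, Lrrc17 has 6 and Nkx2-5, a cardiac transcription factor, has 9.

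Most bases and regions were shared between the 24h and 5d lists, and the 5d list had slightly narrower and more numerous regions. With 1 library a time and unknown read depth, time and library depth cannot be told apart. Regions covered 350.6 Mb at 5d and 363.1 Mb at 24h, a ratio of 0.966, which was 12.9% (5d) and 13.3% (24h) of the chromosomes. With regions below each list's median score left out the ratio was 1.74. That median was 1 at 5d and 2 at 24h, so only the 24h list was cut. This alternative therefore cannot decide the direction of the small difference. Of the 48386 regions at 5d, 39452 (81.5%) were already present at 24h and 8934 (18.5%) were gained. Of the 44827 regions at 24h, 36566 (81.6%) were kept and 8261 (18.4%) were lost. The exact Clopper-Pearson interval at 95% is 18.1 to 18.8% for both the gained and the lost share, and it covers counting error over regions only. In bases, 273.8 Mb lay in regions at both times, which was 78.1% of the 5d bases, 75.4% of the 24h bases and 62.3% of the bases covered at either time.

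Region widths at 5d ran below those at 24h across the distribution. The median width was 5000 bases at 5d and 5200 bases at 24h, which differ by 1 window. The N50 width (regions at least this wide hold 50% of the covered bases) was 9600 bases at 5d and 11200 at 24h. Regions of 10 kb or more numbered 8731 at 5d (48.6% of covered bases) and 9645 at 24h (54.4%), and regions of 100 kb or more numbered 44 at 5d and 59 at 24h. The widest region of each list was the same place on chromosome 2, 339600 bases at 5d (chr2:117518201-117857800) and 349800 bases at 24h, and it overlaps no protein-coding gene.

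**Figure D1:**
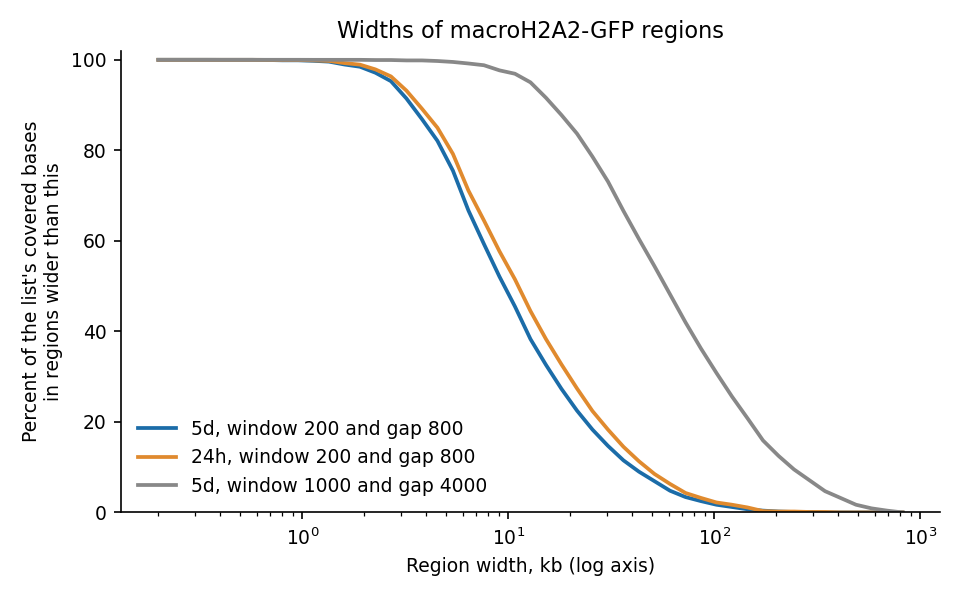
Percent of each list's covered bases (y axis) that lie in regions wider than the width on the log x axis (kb), for the 5d list, the 24h list and the second calling of 5d. The 5d curve lies left of the 24h curve, with 48.6% and 54.4% of bases in regions of 10 kb or more, and the second calling lies far to the right with 97.7%.

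Most of the changed bases lay at the borders or inside regions that persisted, not in whole regions that came or went. Of 76.8 Mb gained at 5d, 46.5% was whole gained regions, 41.6% was new edges of kept regions and 11.9% filled gaps between them. Of 89.3 Mb lost after 24h, 37.5% was whole lost regions, 46.6% edges and 15.9% gaps opened inside. Among 22326 regions with exactly 1 partner at each time, 40.3% were wider at 5d, 52.5% were narrower and 7.13% had the same width. Of their 44652 edges, 35.4% had moved outward at 5d, 44.7% inward and 19.9% stood at the same window, with a median shift of 600 bases in either direction. At 5d, 4980 regions (10.3%) joined 2 or more regions of 24h, while 6767 regions of 24h (15.1%) were split into 2 or more by 5d.

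Wide regions persisted most. Of the 24h regions of 32 kb or more all 1214 were touched at 5d, with 93.2% of their bases, against 67.7% of the regions under 2 kb with 61.5% of their bases. A wide region has more bases that can be touched, so the share of bases is the fairer measure. By that share the narrower classes differed little (61.5% under 2 kb, 59.3% at 2 to 4 kb and 62.7% at 4 to 8 kb), and it was higher only from 8 kb up (75.1% at 8 to 16 kb and 85.6% at 16 to 32 kb). The median width was 3600 bases for gained regions and 3800 for lost regions, against 5400 for 5d regions already present and 6000 for 24h regions kept. Gained regions were also the lowest scoring, with 74.2% at the caller's score of 1, against 56.9% of lost regions and 48.2% of kept 24h regions.

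The widest regions at 5d were almost wholly covered at 24h too. After the chromosome 2 domain came chr15:66659001-66875800 over Tg and Sla (thyroglobulin and an adaptor of lymphocyte receptors), with 99.3% of its bases also covered at 24h, and chr15:5435801-5643600, chr15:62329401-62515600 and chr4:64508001-64693600, which overlap no protein-coding gene and were 96.9 to 100% covered at 24h. These 5 had 80.2 to 98.8% of their bases in regions at 0h as well. The 5d region that joined the most 24h regions was chr2:131563601-131629600, 66000 bases over 9 regions of 24h, and the 24h region split most was chr10:12130001-12264000, 134000 bases holding 10 regions of 5d.

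The running numbers in each list skip some values, and where they jump it is not known whether a region was called there. The 5d list skips 2612 of 50998 numbers (5.12%) and the 24h list 2618 of 47445 (5.52%). Of the gained regions 1578 (17.7%), and of the lost regions 546 (6.61%), lay in a gap of the other list where its numbers jump, and such gaps took 15.9% of the chromosomes in the 24h list and 14.2% in the 5d list. All of the 5 widest gained and the 5 widest lost regions lay in such gaps, so they cannot be told apart from regions that were left out of the other list. They include chr17:30611601-30748800 over Glo1 and Dnah8 (137200 bases, gained, and fully covered at 0h) and chr17:14962201-14992400 over Gm3417 and 9030025P20Rik (30200 bases, lost, with 98.0% covered at 0h). Leaving out such gaps, 49 gained regions were 10 kb or wider, the widest of 16000 bases (chr11:20417001-20433000, no protein-coding gene), and 94 lost regions, the widest of 19200 bases (chr17:53569201-53588400). The lost one lies over Kat2b, a histone acetyltransferase, was fully covered at 6h and had no covered base at 0h. These 2 regions were chosen after their values were seen.

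The second calling joined the 5d regions into larger fields. It covered 522.8 Mb with a median width of 23000 bases, held 92.1% of the bases of the 5d list, and 8764 of its regions (62.4%) contained 2 or more 5d regions, up to 55. It touched 66.7% of the gained regions and 46.3% of the lost ones, against 91.5% of the kept 24h regions.

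The chromosomes were covered unevenly, with the same 4 highest at both times. Coverage was highest on chromosome 15 (32.5% at 5d and 33.3% at 24h), chromosome 17 (26.7% at 5d and 26.8% at 24h), chromosome 8 (24.7% at 5d and 23.7% at 24h) and chromosome 10 (21.8% at 5d and 21% at 24h), and, Y aside, lowest on X (1.35% at 5d and 1.45% at 24h). At 0h, without doxycycline, chromosomes 15, 17, 8 and 10 stood in the same order, at 26.2, 22.3, 17 and 11.9%, and X at 0.316%. Y had 0.0942% at 5d and 0.0718% at 24h. Coverage was lower at 5d on 17 of the 20 chromosomes other than Y and higher on 3, with ratios of 0.830 (chromosome 7) to 1.04 (chromosome 8), and the median width was narrower at 5d on 19 and equal on 1. The chromosomes share 1 library at each time and are not replicates.

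**Figure D2:**
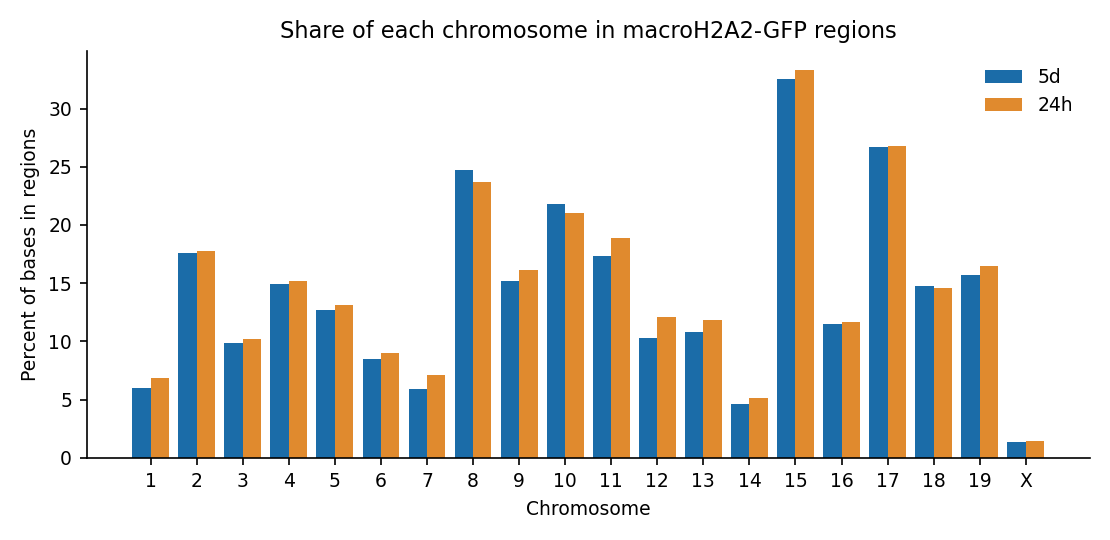
Percent of the bases of chromosomes 1 to 19 and X (x axis) inside regions at 5d (left bar) and 24h (right bar), 1 library each. Chromosomes 15, 17 and 8 are highest at both times and X is the lowest of those drawn, and the bars of a chromosome differ little beside the range across chromosomes.

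Lost bases were in the 6h list more often than gained bases. Of the bases kept to 5d, 72.2% were already in regions at 6h and 60.9% at 0h, before doxycycline. Of the gained bases 19.4% were in the 6h list, against 40.7% of the lost bases, beside 14.1% of all bases in that list. At 0h the shares were close, 14.8% of gained and 14.5% of lost bases, beside 7.39% of all. In regions, 21.7% of those gained and 58.0% of those lost touched a 6h region, and 33.4% of gained and 17.4% of lost regions touched none of the 5 other macroH2A2 lists.

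Lists from drug-treated cells held between 21.5 and 40% of the gained bases and between 35.3 and 50.1% of the lost bases. With flavopiridol, an inhibitor of transcriptional kinases, the 24h list held 31.3% of the bases gained at 5d and 50.1% of those lost, beside 14.1% of all bases. With GSK126, an inhibitor of the methyltransferase Ezh2, the 24h list held 40% of the gained and 38.9% of the lost bases, beside 12.4% of all. The 6h list with GSK126 held 21.5% of gained and 35.3% of lost bases, beside 14.4% of all. The H2A.Z list of primary fibroblasts held 9.22% of kept, 7.30% of gained and 10.9% of lost bases, beside 7.45% of all bases. All lists share the caller, and the macroH2A2 lists share the cell line.

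**Figure D3:**
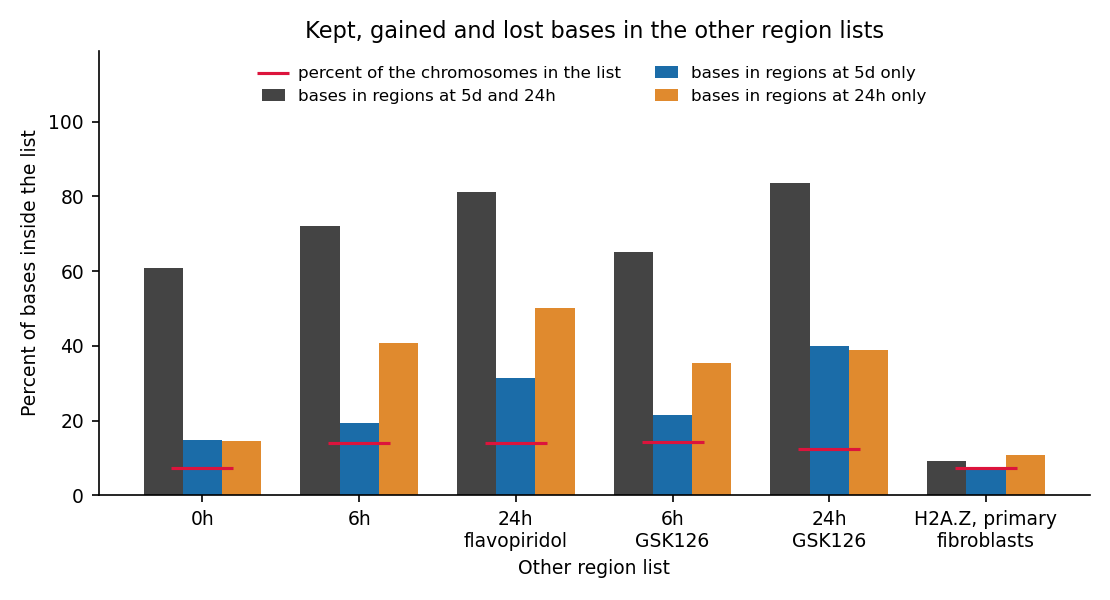
Percent of kept, gained and lost bases (y axis) inside each other region list (x axis). The red mark is the percent of all bases in that list. Kept bases stand highest in every macroH2A2 list, and lost bases stand above gained bases in the 6h list (40.7% against 19.4% for gained bases).

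Lost bases lay in genes more often than gained bases. Protein-coding genes took 25.9% of the gained bases and 35.6% of the lost bases, against 24.2% of kept bases and 39.1% of the chromosomes. For whole regions the gap was wider, 26.2% of gained and 42% of lost region bases. Genes with 10 CPM or more held 2.53% of gained, 9.45% of lost and 4.21% of kept bases, beside 17.1% of the chromosomes.

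Coverage was highest in genes with little RNA and lowest in the most transcribed genes, and the ratio of 5d to 24h was lowest in the most transcribed genes. Coverage here is the percent of a gene's bases inside regions, over 18415 protein-coding genes of 3 kb or more with 1 kb left out at both ends, of which 17934 had RNA counts. In the 8403 genes with 10 CPM or more at 24h (high) the mean coverage was 1.16% at 5d and 2.25% at 24h, a ratio of 0.515. In the 1914 genes of 1 to 10 CPM (medium) it was 8.55% at 5d and 13.9% at 24h, a ratio of 0.618. In the 1303 genes of 0.1 to 1 CPM (low) it was 22.6% at 5d and 29.6% at 24h, a ratio of 0.763, and in the 6314 silent genes (below 0.1 CPM) 15.5% at 5d and 17.3% at 24h, a ratio of 0.897. The high genes had a mean coverage of 0.936% at 0h, 20.1% at 6h, 2.25% at 24h and 1.16% at 5d, the highest being at 6h and the lowest without doxycycline. When bases were pooled over genes, the silent class stood at 10.2% at 5d and 9.73% at 24h, so its direction depends on whether genes or bases are averaged, while the high class stood at 3.04% at 5d and 4.47% at 24h. With regions below the median score left out, which cut only the 24h list, the ratios were 1.73 (silent), 1.27, 1.16 and 1.05 (high). With the second calling of 5d, whose windows differ from those of the 24h list, they were 1.54, 1.24, 1.09 and 0.863. Both alternatives treat the times unequally, so they cannot decide the direction. The order of the classes was the same in both.

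**Figure D4:**
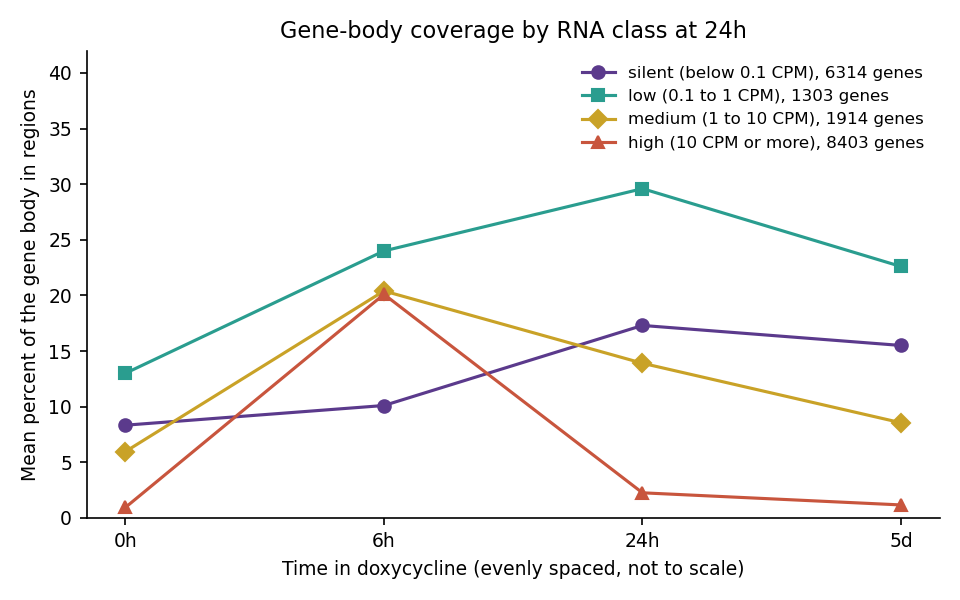
Mean percent of the gene body inside regions (y axis) at 0h, 6h, 24h and 5d (x axis, evenly spaced) for genes grouped by RNA at 24h, 1 ChIP library a time. High genes stand at 20.1% at 6h, 2.25% at 24h and 1.16% at 5d, and silent genes at 10.1%, 17.3% and 15.5%.

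The share of genes in a region dipped at the start in every RNA class at both times. In high genes it stayed low inside the gene. Among 2067 high genes of 50 kb or longer with 1 known strand, 31.6% at 5d and 42.3% at 24h lay in a region 2 kb before the start. At the start itself the shares were 3.68% at 5d and 6.82% at 24h, and 20 kb inside the gene 3.73% at 5d and 4.74% at 24h. The upstream shoulder was highest 7.5 kb before the start at 5d (36.2%) and 3 kb before it at 24h (44.6%), while 20 kb before the start the times differed little (29.7% at 5d and 31.9% at 24h). Among 1112 silent genes the shares 2 kb before the start were 15.0% at 5d and 13.2% at 24h. At the start of these silent genes they were 6.47% at 5d and 7.73% at 24h, and 20 kb inside 13.0% at 5d and 10.9% at 24h. At 2 kb upstream of high genes the times differed more than at 20 kb upstream.

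**Figure D5:**
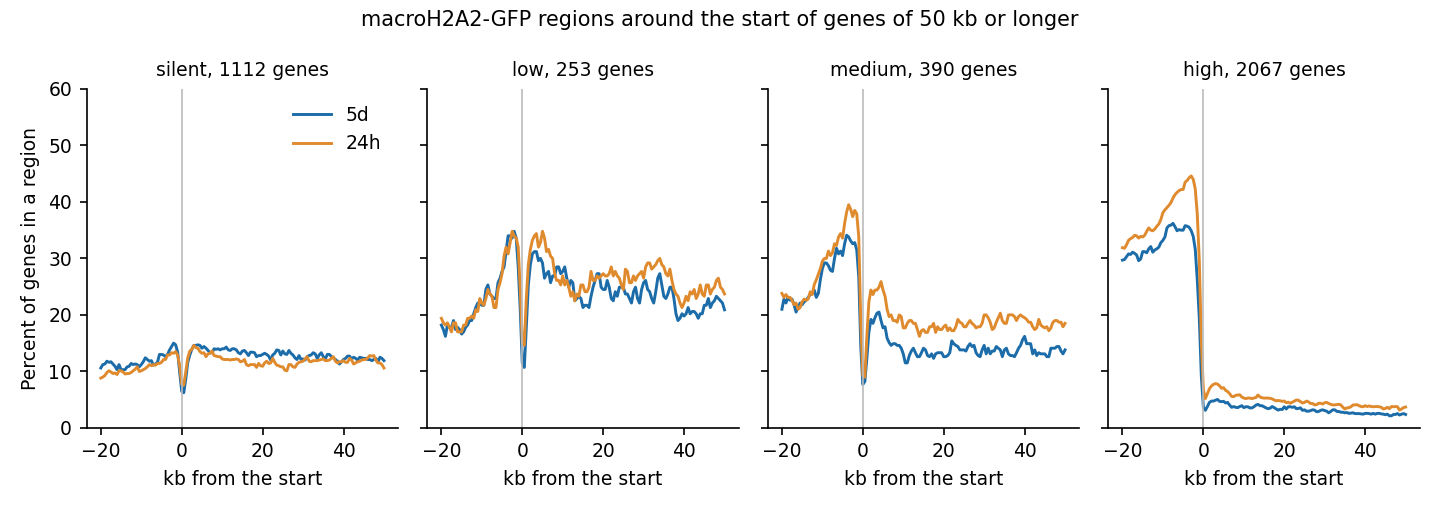
Percent of genes (y axis) with a region at each distance from their start (x axis, kb; negative is upstream), for genes of 50 kb or longer in 4 RNA classes, at 5d and 24h. Every class dips at the start. In high genes coverage falls sharply there at both times and stays low inside the gene, with 31.6% at 5d and 42.3% at 24h at 2 kb upstream.

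Fewer start sites lay in regions at 5d than at 24h. Of 18331 windows of 300 bases, for 14615 of the genes, 841 (4.59%) lay wholly inside a region at 5d and 1254 (6.84%) at 24h. The windows divided into 650 kept, 191 gained (1.04% of windows) and 604 lost (3.29%). The median number of CG dinucleotides was 4 in kept, 4 in gained and 6 in lost windows, beside 15 in all windows. A count of 10 or more was found in 16.3% of kept, 18.3% of gained and 33.4% of lost windows, beside 62.3% of all. Of the windows whose gene had RNA counts, 16.9% of kept, 6.95% of gained and 30.4% of lost windows belonged to a gene with 1 CPM or more at 24h, beside 60.2% of all.

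At the level of whole genes, 411 were covered at 80% or more at both times and are called kept (2.23% of genes). Many of these were already covered without doxycycline, with a median of 79.1% and a mean of 67.8% in the 0h list. The mean over all genes at 0h was 4.98%. At 80% or more stood 510 genes at 5d and 805 at 24h. Coverage was 60 points or more higher at 5d in 38 genes, called gained (0.206%), and 60 points or more lower in 191 genes, called lost (1.04%). Most genes had little coverage, since 15021 (81.6%) had 20% or less at both times. Around the 60 point mark, Slfn5 and Ptafr stood just inside the gained group (61.29 and 64.69 points) and Lipn and Alb just outside (59.21 each), while Rasal1 stood just inside the lost group (-60.09) and Tmem145 just outside (-59.79). Of the 38 gained genes 14 held a jump in either list's running numbers, as did 14 of the 191 lost genes, 12 of the 411 kept genes and 2440 of all 18415 genes.

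Kept, gained and lost genes were mostly silent, with 69.9% of kept genes (exact interval 65.2 to 74.4%), 86.8% of gained genes (71.9 to 95.6%) and 62.1% of lost genes (54.6 to 69.3%) below 0.1 CPM at 24h, beside 35.2% of all genes. Of the genes with RNA counts, 9.77% of kept genes (39 of 399), 5.26% of gained genes (2 of 38) and 23.7% of lost genes (42 of 177; exact interval 17.7 to 30.7%) had 1 CPM or more at 24h, beside 57.5% of all genes. Among genes covered at 60% or more at 24h, those lost by 5d were 14 of 58 high genes (24.1%), 28 of 164 medium genes (17.1%), 25 of 293 low genes (8.53%) and 110 of 840 silent genes (13.1%). The groups also differed in length, with a median of 11.4 kb for kept, 6.96 kb for gained and 6.41 kb for lost genes, beside 22.7 kb for all genes. No gene of 100 kb or longer was gained or lost. Chromosome 8 held 60 kept genes (6.53% of its 919 genes), chromosome 15 held 60 (8.38% of 716) and chromosome 17 held 89 (9.97% of 893), beside 2.23% of all genes. Chromosome 17 also held 34 lost genes (3.81%), of which 9 hold a jump in the running numbers.

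The longest kept genes included genes of nerve and thyroid cells. Of 58 neuronal adhesion and axon guidance genes 1 was kept, and of 41 glutamate and GABA receptor genes 0, beside 2.23% of all genes. Dlgap2, a postsynaptic scaffold of 758 kb, was 84.7% covered at 5d and 82.6% at 24h, Adcy8, an adenylyl cyclase of the nervous system, 90.7% at 5d and 88.1% at 24h, and Tg, the thyroid hormone precursor, 100% at 5d and 99.4% at 24h. Fam135b, Rcan2, Disc1, Cubn, Col14a1, Ptprq and Wdr27 completed the 10 longest, between 84.5 and 95.1% at 5d and between 82.9 and 96.3% at 24h. A few kept genes were transcribed. Cyp1b1, a cytochrome P450, had 44.3 ± 1.29 CPM at 24h with 82.7% coverage at 5d and 85.9% at 24h. Smoc2, a secreted matrix protein, had 17.3 ± 1.83 CPM with 98.9% at 5d and 99% at 24h, and Cubn, an endocytic receptor, 13.2 ± 1.73 CPM with 84.5% at 5d and 96.0% at 24h (SD, n = 3). Tubb3, a neuronal tubulin, and Ly6c1, a surface antigen, followed at 12.2 and 11 CPM. Dlgap2, Fam135b, Adcy8, Col14a1 and Wdr27 hold a jump in the running numbers of at least 1 list.

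Gained genes were small and nearly all silent. Slc4a1, the band 3 anion exchanger of red cells, was 93.1% covered at 5d and 17.8% at 24h with 0 CPM at 24h. Tex55, a testis gene, was 86.5% covered at 5d and 12.3% at 24h, and Nmbr, a neuropeptide receptor, 85.7% at 5d and 17.8% at 24h. None of these 3 held a jump in the running numbers. Lrrc17, Msh5 (a meiotic MutS protein), Ptafr, Zfp882, Vmn2r12, H2-Q4 and Dazl (a germ cell RNA-binding protein) each held a jump in the 24h numbers. They were covered at 70.5 to 99.8% at 5d and 0 to 23.1% at 24h. H2-Q4 and Dazl also held a jump in the 5d numbers. For Lrrc17, Msh5 and Ptafr the 6h list had 72.0, 98.8 and 77.8% and the 0h list 34.5, 100 and 67.0%. Dazl had 99.8% at 0h, while Zfp882, Vmn2r12 and H2-Q4 had 0%. The second calling of 5d had 0% for Dazl and 93.9 to 100% for the others. Vomeronasal receptor, defensin and H2 class I genes have near-identical copies, and how reads were divided among copies is not given in the sources used here.

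Lost genes included some with abundant RNA. Thbs2 (chr17:14665500-14694262) was 32.0% covered at 5d and 92.5% at 24h, and had 82.0 ± 3.94 CPM at 24h. H2-D1, a class I histocompatibility heavy chain, was 0% covered at 5d and 87.2% at 24h with 54.6 ± 2.29 CPM, and Mrpl33, a mitochondrial ribosomal protein, 0% at 5d and 60.4% at 24h with 50.9 ± 1.79 CPM. Both had been covered at 6h (87.2 and 96.3%) and neither at 0h. Fstl3, which binds activin, was 6.85% covered at 5d and 78.3% at 24h with 26.1 ± 1.32 CPM, and Sap30, of the Sin3 deacetylase complex, 0% at 5d and 66.4% at 24h with 22.7 ± 1.15 CPM and a jump in the 5d numbers inside it.

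By bases lost, Ttll1, a tubulin glutamylase, came first with 20.4% at 5d and 87.4% at 24h, at 16.2 ± 0.741 CPM (SD, n = 3). Slc6a4 followed with 15.1% at 5d and 77.5% at 24h, Rasal1, a Ras GTPase activator, with 8.12% at 5d and 68.2% at 24h, and Dync2li1, Bdh2, Smpdl3b, Adssl1, Lrrc43 and Letm2 with 0 to 33.2% at 5d and 64.3 to 95.8% at 24h. Dync2li1 holds a jump in the 5d numbers. In the second calling of 5d some of these were still covered, with 100% for Thbs2, H2-D1 and Adssl1, and others were not, with 0% for Letm2, Bdh2, Mrpl33 and Fstl3. Over all 191 lost genes the second calling had a median coverage of 42.7%. Lost genes had a mean coverage of 40.3% at 6h and 11.2% at 0h, against 11.7% at 6h and 15.5% at 0h for gained genes.

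Of 23 gene lists, the mean coverage was lower at 5d than at 24h in 18, higher in 3 and 0 at both times in 2, beside 8.50% at 5d and 10.7% at 24h over all genes. Coverage 10 points or more higher at 5d was found in 659 of all genes (3.58%) and 10 points or more lower in 1772 (9.62%). The lists together held 17 kept entries, 8 lost and none gained, where a gene found in several lists counts in each. Over all genes 2.23% were kept, 1.04% lost and 0.206% gained. No excess or lack beside these shares is read from the counts.

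Among developmental signals, 3 of 38 Bmp, Fgf and hedgehog genes were lost and 0 gained. Over all genes, 1.04% were lost, 0.206% gained and 2.23% kept, and the counts below stand beside these shares. Gdf5, a joint morphogen, was 0% covered at 5d and 100% at 24h, Fgf8, an embryonic growth factor, 0% at 5d and 97.5% at 24h, and Gli1, the hedgehog transcription factor, 0% at 5d and 70.1% at 24h, while Dhh, desert hedgehog, had 96.1% at 5d and 100% at 24h. In the second calling of 5d Gdf5 had 100% and Gli1 73.4%, which ends these losses, and Fgf8 had 0%. Among 32 Wnt genes Wnt1 was lost (0% at 5d and 100% at 24h, but 100% in the second calling of 5d) and Wnt7b kept (94.1% at 5d and 91.4% at 24h). Wnt10b, at 38.5 ± 1.42 CPM (SD, n = 3), was 0% covered at 5d (41.7% in the second calling) and 56.2% at 24h. Of 88 developmental transcription factors 3 were kept, among them Foxf1 (99.2% at both times) and Nkx2-5 (96.8% at 5d and 100% at 24h), and 1 lost, Zic2 (0% at 5d, 11.1% in the second calling, and 72.3% at 24h). Of 25 Hox genes 3 were kept, with Hoxd13 at 100% and Hoxc10 at 99.8% at 5d, and 20 had no coverage at either time, beside 69.6% of all genes.

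Most matrix and fibroblast marker genes differed by less than 10 points, and most had no coverage at either time. Of 40 collagen and matrix genes 33 did, 24 of them with no coverage at either time, while 6 were 10 points or more lower at 5d (9.62% of all genes were) and 1 higher. Besides Thbs2, Col6a3, a collagen chain, was 17.8% covered at 5d and 47.8% at 24h, and Spp1, osteopontin, 36.9% at 5d and 59.4% at 24h while transcribed at 585 ± 13.9 CPM (SD, n = 3). The second calling of 5d had 58.7% for Col6a3 and 100% for Spp1. Of 19 fibroblast markers 14 differed by less than 10 points, 12 of them with no coverage at either time. Another 4 were 10 points or more higher at 5d (3.58% of all genes were) and 1 lower. Dcn, decorin, was 89.6% covered at 5d and 67.3% at 24h, Lum, lumican, 100% at both times, Postn, periostin, 30.1% at 5d and 15.9% at 24h, and Fap, fibroblast activation protein, 23.3% at 5d and 3.46% at 24h. Col1a1 and Vim had no coverage at either time.

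Among the marker lists of cell types other than fibroblasts, 3 had markers both higher and lower at 5d by 10 points or more. These were the melanocyte and Schwann, muscle and fat, and hepatocyte and gut lists. Of 9 macrophage and leukocyte markers 1 was 10 points or more lower at 5d and 0 were higher by that measure. Of 10 endothelial markers 2 were 10 points or more lower at 5d and none 10 points or more higher. Cdh5, the endothelial cadherin, was 18.1% covered at 5d and 70.9% at 24h and Pecam1 17.9% at 5d and 52.9% at 24h, with 85.3 and 66.1% in the second calling of 5d, while the receptors Tek (16.1% at 5d and 6.51% at 24h) and Kdr (19.4% at 5d and 14.5% at 24h) were slightly higher at 5d. Of 10 melanocyte and Schwann markers 2 were higher at 5d by that measure and 3 lower. Erbb3, a receptor of Schwann cells, was 31.8% covered at 5d and 80.1% at 24h, whereas Mlana, a melanocyte antigen, was 50.1% at 5d and 32.1% at 24h, and Sox10, a neural crest transcription factor, 68.6% at 5d and 55.1% at 24h. Of 10 muscle and fat markers 1 was higher at 5d, Lep, the adipocyte hormone (56.6% at 5d and 24.0% at 24h), and 1 lower, Acta1, skeletal muscle actin (0% at 5d and 76.1% at 24h, with 100% in the second calling). Of 11 hepatocyte and gut markers 2 were higher at 5d, Alb (59.2% at 5d and 0% at 24h) and Afp, alpha-fetoprotein (28.4% at 5d and 0% at 24h), and 1 lower, Vil1, villin (0% at 5d and 20.7% at 24h). Of 10 keratinocyte markers none differed by 10 points or more, and Cdh1 and Epcam were kept (91.4 and 92.4% at 5d, 94.1 and 86.1% at 24h). Of 19 interferon and inflammatory genes 2 were 10 points or more higher at 5d and 2 lower, and 15 differed by less. Il6 was fully covered at both times and the chemokine Ccl5 was 0% covered at 5d, in both callings, and 100% at 24h.

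Housekeeping genes lay mostly outside the regions, as did 69.6% of all genes (12817 of 18415), which had no coverage at either time. None of 23 ribosomal protein and translation genes and none of 21 actin cytoskeleton genes had any coverage at either time, and of 31 cell cycle and replication genes 29 had none. Of 29 Polycomb group genes 23 had none, with Ezh1 at 0% at 5d and 18.0% at 24h and Cbx7 at 47.9% at 5d and 58.8% at 24h. The Macroh2a2 gene itself was 49.6% covered at 5d, 63.2% at 24h and 46.9% at 0h, and Macroh2a1 had no coverage at either 5d or 24h.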

How the data were processed

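Native ChIP-seq of macroH2A2-GFP was read from region lists that the authors deposited, and poly(A) RNA-seq from deposited counts per gene. Per the submitters' processing notes, Bowtie 1.1.2, SICER 1.1 and STAR 2.5.2b were used with GRCm38. Each deposited list gives a region's place, a whole-number score whose reference is not given in the sources used here, and another column with a running number. The deposited region ends were read as the last base, counted from 0. The read depth of the ChIP libraries is unknown.

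Overlaps and covered bases were computed over chromosomes 1 to 19, X and Y, gene coverage without Y, and both were checked on simulated intervals and against bedtools 2.31.1 (pandas 2.3.3, numpy 2.4.6, Python 3.11.15). Genes and start sites were those of RefSeq GRCm38.p6. CPM were computed from the fourth column of the count files (96.6% or more of the stranded counts), without further normalization, and p-values were not computed. Intervals are exact Clopper-Pearson (scipy 1.17.1). The RNA replicates are not stated to be separate cultures.

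Named genes were the 10 longest kept genes, the 10 gained and 10 lost genes with the largest difference in covered bases, the 5 of each group with the most RNA at 24h, the macroH2A genes, and up to 4 members of each list with the largest difference and 2 with the highest coverage at 5d. Named regions were the 5 widest at 5d, gained and lost, and those holding the most regions of the other time. The members and lists were chosen with earlier results of these data known. Figures were drawn with matplotlib 3.10.9.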

Additional observations from a re-analysis of the deposited data

How the results depend on the processing

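With 1 library a time, time and library depth cannot be told apart, and a change in calling moved most counts. Values are given as results under each alternative. No paired analysis was possible because each ChIP time has 1 library and no test was made. Leaving out regions below the median score of their list gave a covered-base ratio of 1.74, 84.2% of 24h regions kept, 45.8% of 5d regions already present, 80.5% of 24h bases kept, 46.2% of 5d bases already covered, 226 genes kept, 377 gained and 74 lost. There the 6h list held 82.2% of kept, 42.1% of gained and 48.5% of lost bases, and the coverage ratios were 1.73 (silent), 1.27 (low), 1.16 (medium) and 1.05 (high). This alternative keeps all of the 5d list, whose median score is 1. The second calling of 5d gave a ratio of 1.44, shares of 83.2% (24h regions), 92.8% (5d regions), 88.2% (24h bases) and 61.2% (5d bases), a median width difference of 17800 bases, and 691 genes kept, 474 gained and 110 lost. There the 6h list held 66.4% of kept, 12.4% of gained and 50.4% of lost bases, and the coverage ratios were 1.54 (silent), 1.24 (low), 1.09 (medium) and 0.863 (high). Its windows differ from those of the 24h list.

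Cutting the 24h list to the covered length of 5d gave a ratio of 1, 83.1% of 24h regions kept, 76.8% of 5d regions already present, 76% of 5d bases already covered, a width difference of -800 bases and 21.6% of gained bases in the 6h list. Joining regions over gaps of up to 4 kb gave 79.6% of 5d regions already present, 79% of 24h bases kept, 80.7% of 5d bases already covered, 685 genes kept, 64 gained, and 67.5% of kept, 15.6% of gained and 38% of lost bases in the 6h list. Regions of 2 kb or wider gave 79.7% (24h) and 81.1% (5d), and requiring 50% of a region gave 73.1% (24h) and 75.3% (5d). Thresholds of 70% and 40 points gave 93 genes gained and 399 lost, 90% and 80 points gave 253 kept, 18 gained and 93 lost, and genes of 10 kb or longer 223 kept, 10 gained and 48 lost. Leaving out regions or genes beside a jump in the running numbers, an alternative chosen after seeing the data, gave 82.6% (24h regions), 84.3% (5d regions), 79.9% (5d bases) and 24 genes gained. The cause of these moves was not tested. Leaving out 1 RNA library at 24h gave 9.77 to 9.77% of kept, 2.63 to 5.26% of gained, 22.6 to 24.3% of lost and 57.5 to 57.6% of all genes at 1 CPM or more. Whole genes without trimming gave 320 kept, 26 gained and 130 lost, unstranded counts gave 23.2% of lost genes at 1 CPM or more, and leaving out chromosome Y left the printed values as they were.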
